A study of Homo sapiens with 12 samples.

Results

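The genes described are 10 members of the S100 family, S100A2, S100A4, S100A6, S100A8, S100A9, S100A10, S100A11, S100A14, S100A16 and S100P, out of 62754 gene identifiers in the count table. They were taken by symbol, and the set was chosen by measured values: S100A8 had been seen to be higher in untreated TDP1 knockout cells than in untreated wild-type cells. Values of that contrast are therefore given as a description without a test. RNA was sequenced from PC9, a human lung adenocarcinoma line whose growth depends on mutant EGFR, in 4 groups of 3 libraries, all assigned to 1 batch by the labels. Untreated WT stands for TDP1 wild-type cells without drug. The other groups were TDP1 wild-type cells after 7 days of 1 µM erlotinib, called drug-tolerant cells (DTC), TDP1 wild-type cells after 28 days of the same dose, called drug-tolerant expanded cells (DTEC), and untreated TDP1 knockout cells (KO). Erlotinib inhibits the EGFR kinase, and TDP1 is an enzyme that removes trapped topoisomerase I from DNA. The knockout is 1 line, named KO2, so its values cannot separate the genotype from that line. Cultures were split from one flask and then grown apart according to the labels, so every test below measures the spread between such cultures.

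S100 proteins are small EF-hand proteins that mostly act as dimers. On binding calcium they expose a surface that grips partners such as annexins, myosin and ezrin. Several also leave the cell and act on receptors, among them the receptor for advanced glycation end products (AGER, or RAGE) and TLR4. S100A8 and S100A9 together form calprotectin, an abundant protein of neutrophils and monocytes that epithelia also make under stress and inflammation. Most of the family lies in one stretch of the long arm of chromosome 1, among the genes of the cornified envelope of skin. S100P lies apart, on chromosome 4.

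The promoters of S100A8, S100A9 and S100P are shown because these 3 genes had the widest ranges of group means. Each window runs from 250 bases before to 50 bases after the RefSeq transcription start (GRCh38.p14), 5′ to 3′ on the gene's strand. Capitals mark matches on either strand to TTNNGNAA, a short form of the site of C/EBP factors, and to TATAAA, the TATA box. The windows are chr1:153391139-153391438 on the minus strand for S100A8, chr1:153357604-153357903 on the plus strand for S100A9 and chr4:6693628-6693927 on the plus strand for S100P.
S100A8: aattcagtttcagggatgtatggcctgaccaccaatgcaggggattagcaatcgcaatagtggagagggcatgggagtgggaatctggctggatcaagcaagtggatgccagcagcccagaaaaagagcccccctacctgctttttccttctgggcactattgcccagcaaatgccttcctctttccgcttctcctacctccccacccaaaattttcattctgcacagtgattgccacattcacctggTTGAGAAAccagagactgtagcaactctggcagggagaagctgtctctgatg
S100A9: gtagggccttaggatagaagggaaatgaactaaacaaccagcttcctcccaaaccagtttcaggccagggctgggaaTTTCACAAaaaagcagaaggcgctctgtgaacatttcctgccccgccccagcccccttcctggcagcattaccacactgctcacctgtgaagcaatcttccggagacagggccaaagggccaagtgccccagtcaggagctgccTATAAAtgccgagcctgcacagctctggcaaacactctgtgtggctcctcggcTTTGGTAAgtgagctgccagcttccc
S100P: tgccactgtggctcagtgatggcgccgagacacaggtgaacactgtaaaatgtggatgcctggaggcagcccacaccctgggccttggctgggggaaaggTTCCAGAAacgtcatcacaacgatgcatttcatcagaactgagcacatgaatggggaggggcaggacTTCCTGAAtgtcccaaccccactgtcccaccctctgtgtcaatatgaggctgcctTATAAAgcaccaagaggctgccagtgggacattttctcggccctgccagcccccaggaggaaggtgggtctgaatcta
Counted from 1 at the 5′ end of its window, the S100A8 promoter had 1 C/EBP match, at position 249. The S100A9 promoter had 2, at positions 78 and 275, and a TATAAA that began 29 bases before the start. The S100P promoter had 2 C/EBP matches, at positions 101 and 168, and a TATAAA that began 28 bases before the start. None of these matches overlapped. Among all 34943 promoters in the table, 36.9% held TTNNGNAA and 11.6% held TATAAA. Over all 10 genes the C/EBP letters were in 5 promoters and TATAAA in 3, the third being that of S100A4. A further search on both strands found the AP-1 letters TGANTCA in the S100A2 promoter alone (7.72% of all promoters), the TEAD letters CATTCC in the S100A16 promoter alone (4907 of all promoters) and the STAT letters TTCNNNGAA in none (7.66%). The S100P window starts at a RefSeq site 809 bases from the gene's start in GENCODE 29, whereas those of S100A8 and S100A9 agree to the base. The sites used for S100A11, S100A4 and S100A2 were farther off, at 10903, 4330 and 2046 bases. The counts over the 10 genes therefore depend on the start chosen.

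The 12 libraries held 25572691 to 38373679 estimated counts. Levels are given as CPM, counts scaled to a common library total, with totals adjusted by TMM so that the bulk of genes is level between libraries. TDP1 had a mean of 26.3 CPM in untreated WT and 10.8 CPM, or 41.0% of that, in the knockout line. Its mean was 13.96 CPM after 7 days of drug and 26.6 CPM after 28 days. DTC replicate 1 was the lowest of the 3 DTC libraries for 9 of the 10 S100 genes, with a median deviation of -0.45 on the log2 scale. DTC replicate 2 was the highest of its group for 7 of the 10, with a median of 0.40. DTEC replicate 3 and untreated WT replicate 1 were each highest for 8, with medians of 0.22 and 0.11. The calls of the 10 genes share these shifts. The 8 markers of lung adenocarcinoma epithelium summed to 10790 to 11390 CPM without drug, 6294 to 7279 CPM in DTC libraries, 9276 to 12150 CPM in DTEC libraries and 11480 to 12310 CPM in the knockout line. KRT8 was the most abundant without drug, NAPSA was at 0.127 CPM, and NKX2-1 was at or under 3 counts per library outside DTC. The list did not move as one in DTC. By the test given below, NAPSA and NKX2-1 were higher there and EPCAM, KRT8, KRT18 and KRT19 lower. NKX2-1 passed the filter on low counts only through the DTC libraries. Of 11 leukocyte markers, 4, 7, 7 and 6 were above 3 counts in some library of untreated WT, DTC, DTEC and KO in turn, and CD68 was the most abundant. Fibroblast and endothelial markers summed to 66.5 to 70.3, 96.9 to 106, 136 to 153 and 89.1 to 92.3 CPM. In bulk RNA, fewer cells of a kind and less RNA per cell cannot be told apart.

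After 7 days of erlotinib 6 of the 10 S100 genes fell and 0 rose in the main fit. They were S100A9, S100A14, S100A4, S100A8, S100A16 and S100A10, in order of the size of the fall. A gene was called, by edgeR's quasi-likelihood test, at a Benjamini-Hochberg adjusted p under 0.05 over 17115 genes tested. By that rule 67.3% of all tested genes were called in DTC, 34.0% higher and 33.3% lower. Over 13 alternatives (7 other settings and 6 left-out libraries), the falls of S100A8 and S100A10 were lost in 5 and 4. Some alternatives also called genes of the set higher, 3 with library totals alone and 3 without DTC replicate 1. The median log2 fold change of the 10 genes was -0.57, and that of all tested genes 0.06. At 28 days the family was split: S100A8 and S100P rose, S100A2, S100A16 and S100A10 fell, and the other 5 genes did not pass the test. The background in DTEC was 52.3% of genes called, 26.0% higher and 26.3% lower, and the median of the 10 genes was -0.03 against 0.02 for all genes. From DTC to DTEC, tested directly, 5 genes rose (S100A8, S100A9, S100A4, S100A14 and S100P) and 2 fell (S100A2 and S100A11), where 55.4% of all genes were called, 28.8% higher and 26.6% lower. A change of at least 2-fold was called for 3 of the 10 genes in DTC, 3 in DTEC and 5 between the time points, against 36.2%, 19.9% and 22.4% of all genes. Groups did not overlap for 7 of the 10 genes in each comparison: 1 higher and 6 lower in DTC (all tested genes 68.9%, with 35.1% higher and 33.8% lower), 3 higher and 4 lower in DTEC (62.4%, with 31.1% higher and 31.3% lower), and 5 higher and 2 lower between the time points (56.7%, with 29.0% higher and 27.7% lower). The 7-day and 28-day contrasts share the untreated WT libraries.

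**Figure D1:**
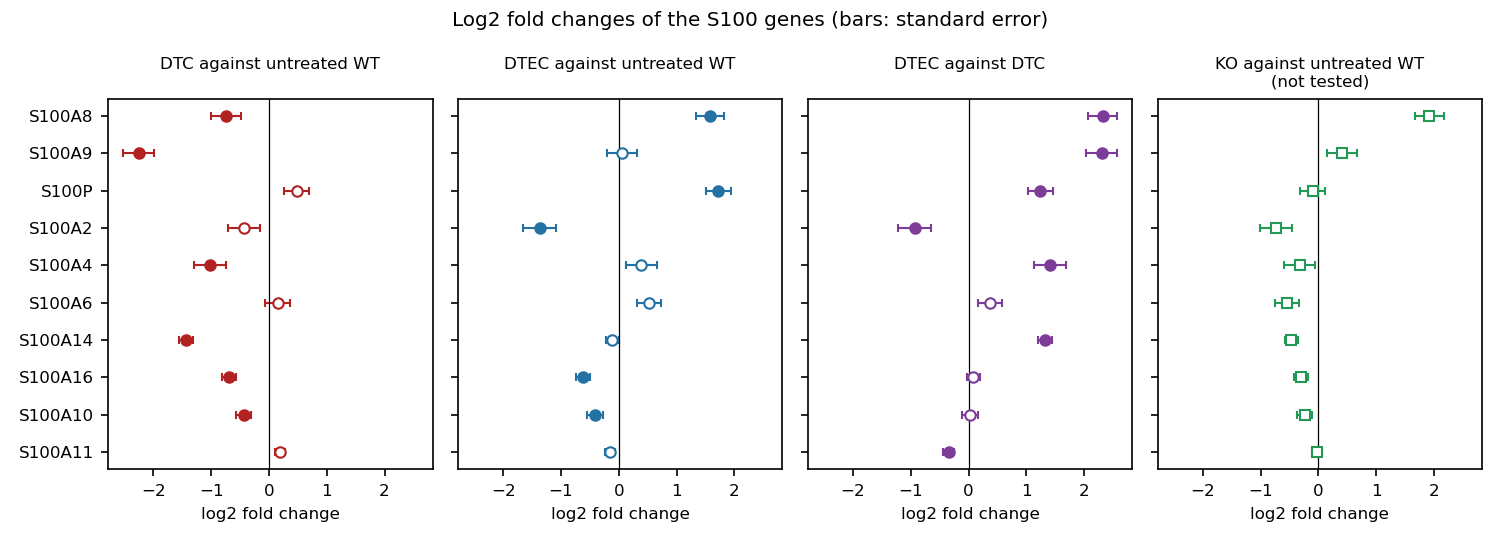
Log2 fold changes of the 10 S100 genes with their standard errors, 1 panel per comparison; filled points passed an adjusted p under 0.05, open points did not, and the open squares of KO against untreated WT carry no test. In DTC 6 genes are filled and all lie left of 0, in DTEC S100A8 and S100P lie farthest right, and from DTC to DTEC S100A8 and S100A9 rise by nearly the same amount.

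S100A9 (ENSG00000163220, chromosome 1, 153357854 to 153361027, plus strand, GRCh38), the larger calprotectin subunit, fell to 20.9% of its untreated level after 7 days and was back near that level at 28 days. Its reads were at 487, 521 and 522 CPM in untreated WT replicates 1, 2 and 3, and at 55.4, 147 and 118 CPM in DTC. All 3 DTC libraries lay below all 3 untreated ones, with DTC replicate 1 the lowest. This gave a log2 fold change of -2.26 (SE 0.27, adjusted p = 9.667e-06 by edgeR's quasi-likelihood test). In DTEC S100A9 was at 410, 551 and 622 CPM, a range that enclosed the untreated one (log2 fold change 0.05, edgeR adjusted p = 0.889). From DTC to DTEC it rose by 2.30 on the log2 scale (SE 0.27, edgeR adjusted p = 1.613e-05). The fall in DTC was called under every alternative run, at -2.50 to -1.90.

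S100A8 (ENSG00000143546, chromosome 1, 153390032 to 153391188, minus strand), the smaller calprotectin subunit, was a rare transcript that ended above its untreated level at 28 days. It was at 4.27, 4.32 and 6.09 CPM in untreated WT and at 1.86, 3.94 and 2.90 CPM in DTC. The groups did not overlap, and the fall passed the test (log2 fold change -0.75, SE 0.26, edgeR adjusted p = 0.0205). That call rested on single libraries: its adjusted p was 0.107 without untreated WT replicate 3, 0.102 without DTC replicate 1 and 0.0594 without DTC replicate 3. It was also lost with library totals alone (0.195) and with upper-quartile scaling (0.147) in place of TMM. In DTEC S100A8 was at 10.4, 15.4 and 17.9 CPM, each above every untreated library. This was a rise of 1.57 on the log2 scale over untreated WT (SE 0.24, edgeR adjusted p = 1.165e-04), or 2.98-fold. Both comparisons with untreated WT use the libraries whose S100A8 level entered the choice of the set. Neither p is independent of that choice. Over DTC the rise was 2.32 (SE 0.26, edgeR adjusted p = 5.168e-06). The counts behind these values were 55 to 678 reads per library.

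**Figure D2:**
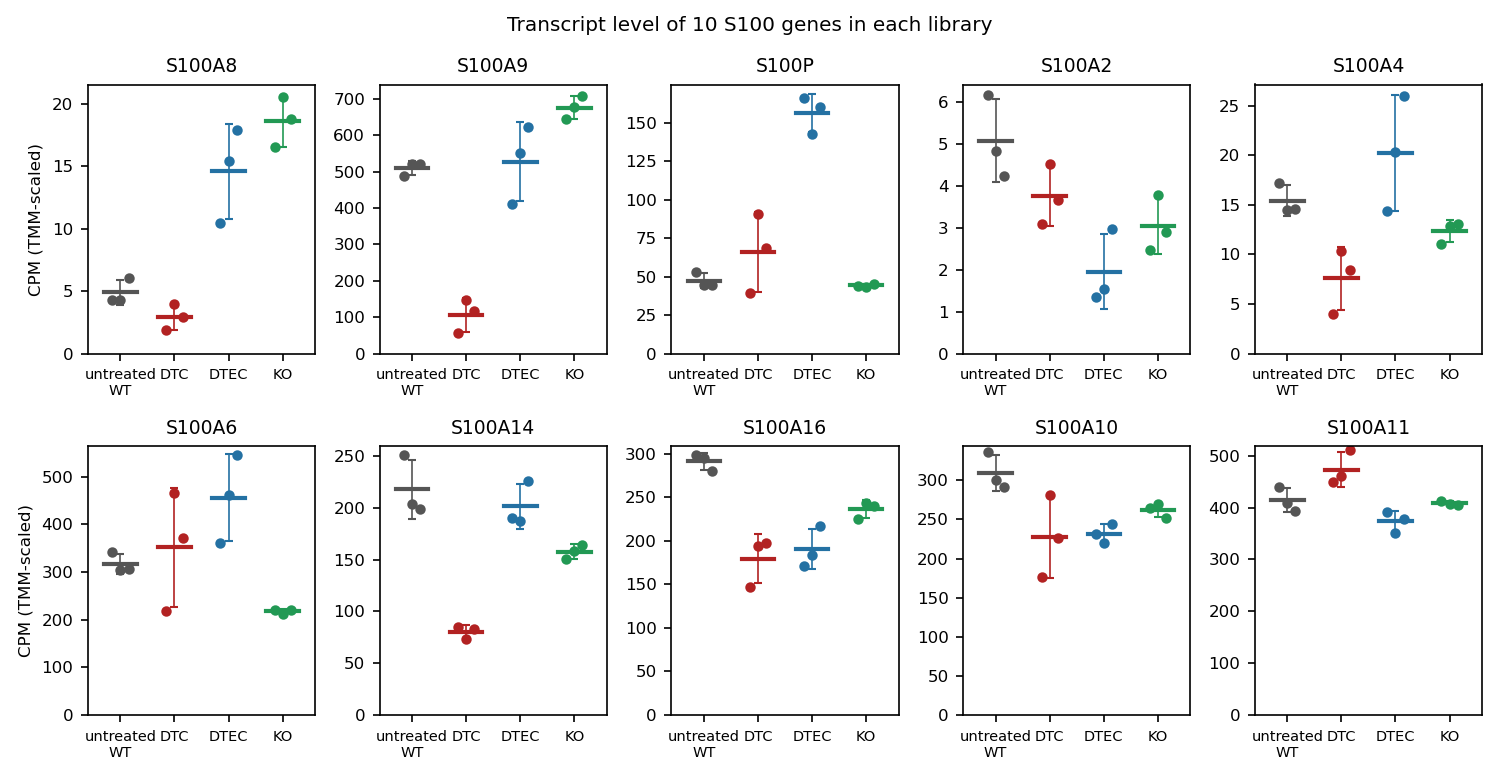
Level of each of the 10 S100 genes in each library in CPM (linear axes from 0), by group; points are the 3 libraries of a group, the line is their mean and the bar their SD. S100A9, S100A14 and S100A4 are lowest in DTC and near or above the untreated level in DTEC, S100A8 and S100P are raised in DTEC, and S100A8 is also high in KO, between 16.5 and 20.5 CPM.

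The 2 calprotectin transcripts were far from equal in number, and their proportion was not the same in all groups. Untreated WT had 107 ± 18.6 (SD, n = 3) S100A9 reads per S100A8 read, with libraries at 85.7 to 121. DTC had 35.9 ± 5.53 and DTEC 36.6 ± 2.37. KO had 36.6 ± 3.19, given as a description, since its S100A8 difference from untreated WT chose the set. No library of these 3 groups was above 40.6. The log2 difference from untreated WT was -1.57 in DTC and -1.53 in DTEC. In a two-sided exact permutation test each had p = 0.1, the smallest that 3 libraries against 3 can give. DTEC and DTC differed in this proportion by 0.04 on the log2 scale, with an exact permutation p of 0.9. The untreated WT libraries behind these differences are also those whose S100A8 level entered the choice of the set. These are reads per gene, without correction for length, and say nothing of protein.

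**Figure D3:**
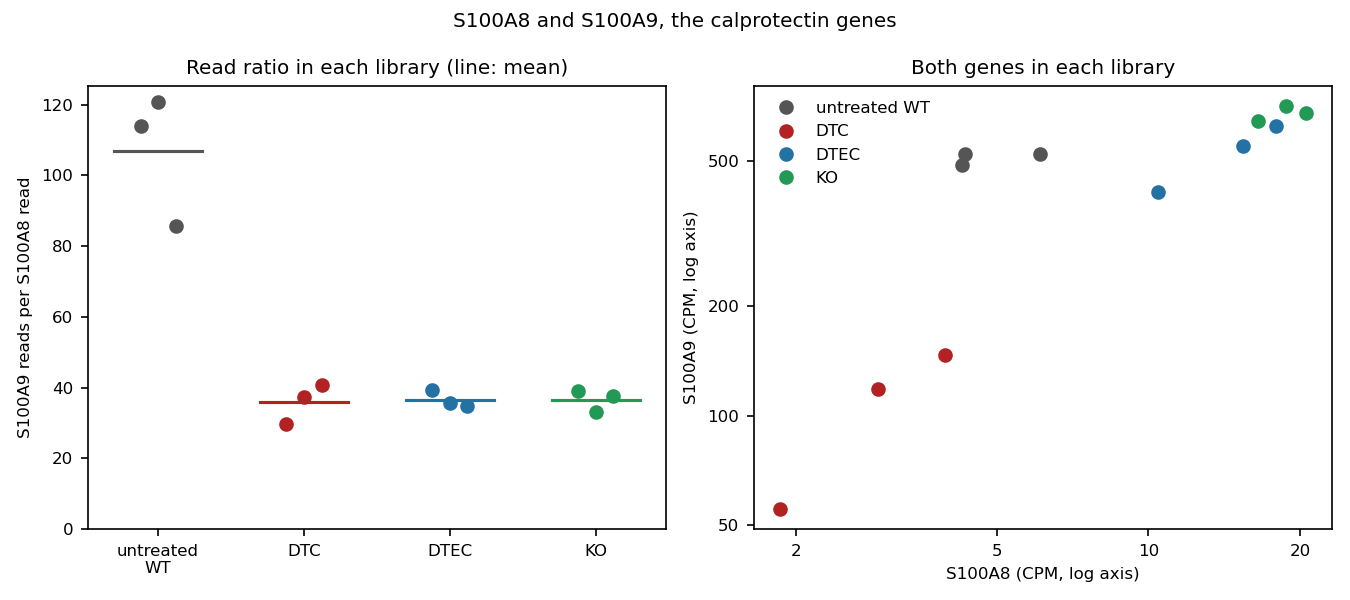
Left, S100A9 reads per S100A8 read in each library by group, with the group mean as a line; right, S100A9 against S100A8 in CPM on log axes, 1 point per library. The 3 untreated WT libraries lie at 85.7 to 121 and all other libraries at 29.8 to 40.6. Both genes are below untreated WT in DTC and above it in KO, while in DTEC S100A8 is above it and S100A9 overlaps it.

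In KO, S100A8 was at 16.5, 20.5 and 18.7 CPM, all above the untreated WT libraries, with a mean of 18.6 ± 2.02 (SD, n = 3) against 4.89 ± 1.04. The fold was 3.80, a log2 difference of 1.92. S100A9 was at 644, 676 and 706 CPM in KO, 1.33-fold above untreated WT and again without overlap. The S100A8 difference is the one that chose the set, and the S100A9 difference comes from the same contrast, so neither was tested. Between KO and untreated WT, 8 of the 10 genes had groups that did not overlap, 2 higher and 6 lower, and across all tested genes 35.7% did not overlap, 15.8% higher and 19.9% lower. Nothing is read from that count, because the contrast chose the genes. The 6 lower genes were S100A2, S100A6, S100A14, S100A4, S100A16 and S100A10, at 60.1%, 68.6%, 72.3%, 79.9%, 81.2% and 84.7% of untreated WT. S100P and S100A11 overlapped between KO and untreated WT, at 93.5% and 98.5%.

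Markers of cells that carry calprotectin were read beside these values. The 11 leukocyte markers summed to 28.1 to 35.0 CPM without drug, 49.7 to 66.4 CPM after 7 days, 36.5 to 43.6 CPM after 28 days and 27.6 to 31.0 CPM in the knockout line. Of the 5 leukocyte markers tested, 3 passed the filter on low counts without DTC. All 3 were called higher in DTC, where 34.0% of all tested genes were. LYZ was at 0.217 CPM without drug and 1.36 CPM after 7 days, ITGAM at 1.298 and 10.35 CPM, and CD68 at 29.8 and 46.4 CPM. The other 2, CD14 and CSF3R, passed the filter on low counts only through the DTC libraries. The neutrophil and monocyte markers FCGR3B, MPO and FCN1 were at or under 3 counts in every library, and PTPRC, the pan-leukocyte marker, was so in untreated WT and KO. The 7 squamous or basal markers summed to 168 to 175, 69.1 to 99.7, 67.6 to 154 and 241 to 250 CPM in the same order of groups, and 4, 7, 4 and 5 of them were above 3 counts in some library. KRT5, a basal keratin, averaged 148, 69.9, 28.6 and 194 CPM, again in that order. KRT13, a keratin of wet stratified epithelium, averaged 22.5, 7.39, 75.8 and 48.2 CPM. Its DTEC libraries were far apart, at 32.1, 67.0 and 128 CPM. Of the 4 squamous or basal markers tested, KRT5 and KRT13 were called lower in DTC while KRT14 and TP63 were called higher, and from DTC to DTEC KRT13 was called higher and the other 3 lower. The part of such cells in the result was not tested.

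S100P (ENSG00000163993, chromosome 4, 6693069 to 6697170, plus strand), which binds ezrin inside the cell and RAGE outside it, had the largest rise of the set at 28 days. It was at 52.7, 44.5 and 44.7 CPM in untreated WT, 166, 143 and 160 in DTEC and 43.9, 43.3 and 45.4 in KO. All 3 DTEC libraries were above every library of the other groups, and the rise over untreated WT was 3.30-fold (log2 fold change 1.72, SE 0.22, edgeR adjusted p = 2.107e-05). Against DTC the log2 fold change was 1.24 (edgeR adjusted p = 2.663e-04). In DTC the libraries were at 39.0, 90.3 and 68.4 CPM, so that replicate 1 lay below the untreated cells and the other 2 above them. The 7-day value was not called (log2 fold change 0.48, SE 0.21, edgeR adjusted p = 0.0606). It was called in 7 of 13 alternatives: without DTC replicate 1 (0.78, adjusted p = 1.159e-05) or untreated WT replicate 1 (0.0437), with library totals alone (0.00326), upper-quartile scaling (0.00788) or DESeq2's size factors (0.0369), without the filter on low counts (0.00195) and by DESeq2's own test (0.0226).

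S100A4, a protein of migrating cells that binds non-muscle myosin, fell at 7 days and did not stay low. It was at 17.2, 14.4 and 14.6 CPM in untreated WT and at 4.02, 10.3 and 8.39 in DTC (log2 fold change -1.02, SE 0.28, edgeR adjusted p = 0.0051). In DTEC it was at 14.3, 20.4 and 26.0 CPM, overlapping untreated WT (0.39, edgeR adjusted p = 0.238) and above DTC (1.41, edgeR adjusted p = 7.802e-04). The gene S100A3 lies within the S100A4 span on the same strand. The 12 deposited values were whole numbers for both genes.

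S100A2, a calcium-binding protein of basal and squamous epithelium, fell late. It was at 6.15, 4.82 and 4.24 CPM without drug, 3.08, 4.50 and 3.67 CPM after 7 days and 1.34, 1.53 and 2.97 CPM after 28 days. The DTC libraries overlapped the untreated ones (log2 fold change -0.43, edgeR adjusted p = 0.175), and all DTEC libraries were below both (against untreated WT -1.37, SE 0.29, edgeR adjusted p = 0.001103). Against DTC the fall was -0.93 (edgeR adjusted p = 0.0131), and it was not called without DTEC replicate 1 (0.0596) or DTEC replicate 2 (0.0565). S100A2 had the fewest reads of the set, down to 40 in 1 library.

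S100A6, or calcyclin, which binds the calcyclin-binding protein CACYBP, was among the more abundant transcripts and varied widely between cultures of a treated group. It was at 341, 304 and 306 CPM without drug, 219, 466 and 371 CPM after 7 days and 362, 462 and 545 CPM after 28 days. The DTC libraries lay on both sides of the untreated ones (log2 fold change 0.15, edgeR adjusted p = 0.543). The DTEC libraries were all above them, but the value missed the threshold (0.52, SE 0.21, edgeR adjusted p = 0.0526). It was called in 7 of 13 alternatives: without DTEC replicate 1 (0.0207), with library totals alone (0.0147), upper-quartile scaling (0.0290) or DESeq2's size factors (0.0397), without the filter on low counts (0.000470), with only the compared libraries in the fit (0.00938) and by DESeq2's own test (0.0206). The DTC value was called without DTC replicate 1 (0.0145) and with library totals alone (0.0478), and the direct difference of DTEC and DTC without DTC replicate 2 (0.0275) and without the filter (0.0111).

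S100A14 and S100A16, a pair of epithelial S100 genes that lie side by side at the end of the cluster, both fell at 7 days and then parted. S100A14 was at 251, 204 and 199 CPM without drug, 84.7, 73.8 and 83.1 CPM after 7 days and 191, 188 and 226 CPM after 28 days. Its fall in DTC was to 36.9% of untreated WT (log2 fold change -1.44, SE 0.12, edgeR adjusted p = 7.071e-08), and in DTEC it overlapped the untreated libraries (-0.11, edgeR adjusted p = 0.418). S100A16 was at 299, 295 and 281 CPM without drug, 147, 194 and 198 CPM after 7 days and 172, 184 and 217 CPM after 28 days. It was lower in DTC (-0.70, edgeR adjusted p = 1.428e-04) and in DTEC (-0.61, edgeR adjusted p = 7.028e-04), with no library of either group reaching the untreated range. From DTC to DTEC S100A14 rose by 1.32 on the log2 scale (edgeR adjusted p = 4.094e-07), and the S100A16 difference of 0.09 was not called (edgeR adjusted p = 0.568).

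S100A10 and S100A11, both partners of annexins, moved least. S100A10, which no longer binds calcium and forms a tetramer with annexin A2 at membranes, was at 336, 301 and 291 CPM without drug, 176, 282 and 226 CPM after 7 days and 232, 220 and 244 CPM after 28 days. It was lower in both treated groups (-0.44, edgeR adjusted p = 0.0106, and -0.42, edgeR adjusted p = 0.0193). Neither call was firm. The DTC call was lost without untreated WT replicate 1 (0.0581), with only the compared libraries in the fit (0.0544), with library totals alone (0.590) and with upper-quartile scaling (0.368), and the DTEC call was lost without untreated WT replicate 1 (0.0865), DTEC replicate 1 (0.0554) or DTEC replicate 2 (0.0774) and with those scalings (0.137 and 0.0890). S100A11, a partner of annexin A1, was at 439, 410 and 394 CPM without drug, 449, 461 and 511 CPM after 7 days and 392, 351 and 377 CPM after 28 days. Neither change from untreated WT was called (0.19, edgeR adjusted p = 0.0746, and -0.15, edgeR adjusted p = 0.180), while DTEC was below DTC (-0.34, SE 0.09, edgeR adjusted p = 0.0054). The 7-day value of S100A11 was called in 7 of 13 alternatives, among them those without untreated WT replicate 1 (0.0439), DTC replicate 1 (0.00885) or DTC replicate 2 (0.0254); the others were 3 scalings and DESeq2's own test. Its difference between DTEC and DTC was not called when only those libraries were fitted (0.0545).

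Per kilobase of the median coding transcript, on the CPM scale, S100A9 was the most abundant of the 10 in untreated WT, at 884, followed by S100A11 at 697, S100A6 at 471, S100A10 at 340, S100A16 at 281 and S100A14 at 204. S100P (37.0), S100A4 (27.1), S100A8 (9.61) and S100A2 (8.10) came after a wide gap, and the last 2 overlapped between libraries. In DTC S100A11 led at 797 and S100A9 was at 185, overlapping S100A10 and S100A16. With all exons merged in place of the median transcript S100A9 ranked the third in DTC rather than the fourth. In DTEC and KO S100A9 again led, at 914 and 1171, with libraries that overlapped those of S100A6 in DTEC. S100A8 per kilobase passed S100P in KO by group mean (36.5 against 34.6), with overlapping libraries, and stayed below it with merged exons. Together the 10 genes took 0.192% ± 0.006 (SD, n = 3) of all counts without drug, 0.173% ± 0.033 after 7 days, 0.220% ± 0.025 after 28 days and 0.193% ± 0.003 in the knockout line. For this share the two-sided exact permutation p was 0.5 for DTC and 0.2 for DTEC, each against untreated WT.

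Of 14 genes for binding partners of S100 proteins, all tested, 5 rose and 6 fell in DTC, where 67.3% of all genes were called, and 5 rose and 6 fell in DTEC, where 52.3% were. The medians were -0.27 and 0.19, against 0.06 and 0.02 for all genes. ANXA1, the annexin bound by S100A11, rose from 46.2 CPM in untreated WT to 181 in DTC (log2 fold change 1.97, edgeR adjusted p = 1.383e-07) and was at 79.8 in DTEC (0.79, edgeR adjusted p = 0.001042). ANXA6, another annexin, rose from 11.1 to 40.4 CPM in DTC (1.86, edgeR adjusted p = 1.981e-07). ANXA2, the partner of S100A10, rose from 554 to 808 CPM in DTC (0.54, edgeR adjusted p = 3.447e-04) and fell to 320 in DTEC (-0.79, edgeR adjusted p = 2.303e-05). Unlike ANXA2, S100A10 was below untreated WT at both times. Per S100A10 read there were 1.79 ANXA2 reads without drug, 3.61 after 7 days, 1.38 after 28 days and 1.76 in the knockout line. The differences of DTC and DTEC from untreated WT each had an exact permutation p of 0.1, the smallest possible.

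Other partners did not share one direction with the S100 protein that binds them. CACYBP, bound by S100A6, fell from 179 CPM to 85.2 CPM at 7 days (log2 fold change -1.07, edgeR adjusted p = 2.557e-07) and 77.3 CPM at 28 days (-1.21, edgeR adjusted p = 2.554e-07). EZR, the ezrin gene, fell from 1564 to 692 CPM in DTC (-1.18, edgeR adjusted p = 8.265e-07). In DTEC EZR was also called lower (-0.30, edgeR adjusted p = 0.0486), a call lost in 10 of 13 alternatives (0.0595 to 0.378), those without any 1 of the untreated WT libraries or DTEC replicate 1 or 2 among them. MYH9, the myosin bound by S100A4, rose in DTC (0.46, edgeR adjusted p = 0.002976) and fell in DTEC (-0.49, edgeR adjusted p = 0.002868). PLAT, the tissue plasminogen activator that can bind S100A10, rose from 30.9 to 90.3 CPM in DTEC (1.55, edgeR adjusted p = 1.042e-07), with no call in DTC (0.09, edgeR adjusted p = 0.474). Of the 12 deposited values 0 were whole for PLAT, 2 for ANXA2 and 3 for MYH9, so reads were divided between these genes and other annotated features.

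Of 9 receptor genes 7 were tested, with 3 higher and 2 lower in DTC (67.3% of all genes called) and 1 higher and 3 lower in DTEC (52.3%). CD33, 1 of the 3, passed the filter on low counts only through the DTC libraries. TLR4, a receptor of calprotectin, fell from 43.2 CPM in untreated WT to 15.7 in DTC (log2 fold change -1.46, edgeR adjusted p = 4.802e-08) and was at 28.9 in DTEC (-0.58, edgeR adjusted p = 5.229e-04). AGER, the RAGE gene, was rare, at 2.46 CPM in untreated WT and 1.90 in DTC, and was not called there (-0.37, edgeR adjusted p = 0.160). BSG, a receptor of S100A9, fell in DTC (-0.55, edgeR adjusted p = 0.00375), a call that was lost with library totals alone (0.256) and with upper-quartile scaling (0.137). MCAM, another receptor of calprotectin, rose from 15.7 to 121 CPM in DTC (2.96, edgeR adjusted p = 2.175e-08) and was at 43.1 in DTEC (1.46, edgeR adjusted p = 3.02e-05). CD33, a receptor of myeloid cells, had 0 reads in untreated WT and was at least 3.64-fold higher in DTC, against a floor of 3 counts per library that covers counting error only. The 12 TLR4 values all carried decimals, which means that reads were divided between TLR4 and something else in the annotation.

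Of 10 further S100 genes only 4 had enough reads to test, and S100A7A, S100B, S100G and S100Z were at or under 3 counts in every library. Their directions in DTC were mixed. S100A3, a hair cuticle protein, rose from 0.579 to 1.59 CPM (log2 fold change 1.46, edgeR adjusted p = 0.00376), and S100A5 fell from 2.35 to 0.828 CPM (-1.50, edgeR adjusted p = 1.247e-04). S100A13, which helps export growth factors and was picked here after its values were seen, rose from 38.1 to 77.1 CPM (1.02, edgeR adjusted p = 4.334e-04). None of its 12 deposited values was whole, so reads were divided between S100A13 and another annotated feature. In DTEC, where 52.3% of all genes were called, the 1 call was S100A12 (edgeR adjusted p = 0.0482). It rested on at most 16 reads per library and was lost in 8 of 13 alternatives. S100A12 averaged 0.464 CPM in DTEC, against 0.181 in untreated WT, 0.111 in DTC and 0.328 in KO. Whether it passed the filter on low counts only through the DTEC libraries was not tested.

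Of the 10 genes, 9 lie on chromosome 1 between S100A10 and S100A14, and the interval from the start of S100A10 to the end of S100A1 (151982915 to 153632039, GRCh38) held 90 annotated genes, of which 25 were tested. Among the 9 S100 genes described there, 0 rose, 6 fell and 3 were not called in DTC. Of the 16 other tested genes, 5 passed the filter on low counts only through the DTC libraries and so had to be higher there. Of the 11 that passed without DTC, 8 rose, 1 fell and 2 were not called, where 34.0% of all tested genes rose and 33.3% fell. The 2 sets differ in level: 13 of the 16 other genes were under 1 CPM in untreated WT. The lowest of the 9 S100 genes was at 4.89 CPM there. From DTC to DTEC, 4 of the 9 rose and 2 fell, while 2 of the 11 rose and 8 fell (28.8% and 26.6% of all genes). The 2 calprotectin genes are 29 kb apart on opposite strands, with S100A12 between them. Many of the others are genes of the cornified envelope, the protein shell of skin cells, or fused-type S100 genes such as RPTN. A list of 20 genes, mostly of these kinds, had 8 tested members, of which RPTN and PGLYRP4 passed the filter only through DTC. The other 6, IVL, TCHH, TCHHL1, SPRR1A, SPRR1B and SPRR3, all rose in DTC and all fell from DTC to DTEC.

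The tested genes of this list were very low before treatment. PGLYRP4, a peptidoglycan-binding protein and not a part of the envelope, had 0 reads in untreated WT. It was at 0.913, 1.295 and 0.968 CPM in DTC, at least 11.5-fold higher. RPTN, or repetin, also had 0 reads in untreated WT and was at least 4.41-fold higher in DTC. Both genes passed the filter on low counts only through the DTC libraries. IVL, or involucrin, picked here after its values were seen, went from 1.50 to 12.5 CPM (log2 fold change 3.06, edgeR adjusted p = 6.76e-09). In DTEC IVL was at 2.09 CPM (0.49, edgeR adjusted p = 0.0497), a call lost in 9 of 13 alternatives (0.0502 to 0.186), those without any 1 of the untreated WT libraries or DTEC replicate 1 or 3 among them.

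**Figure D4:**
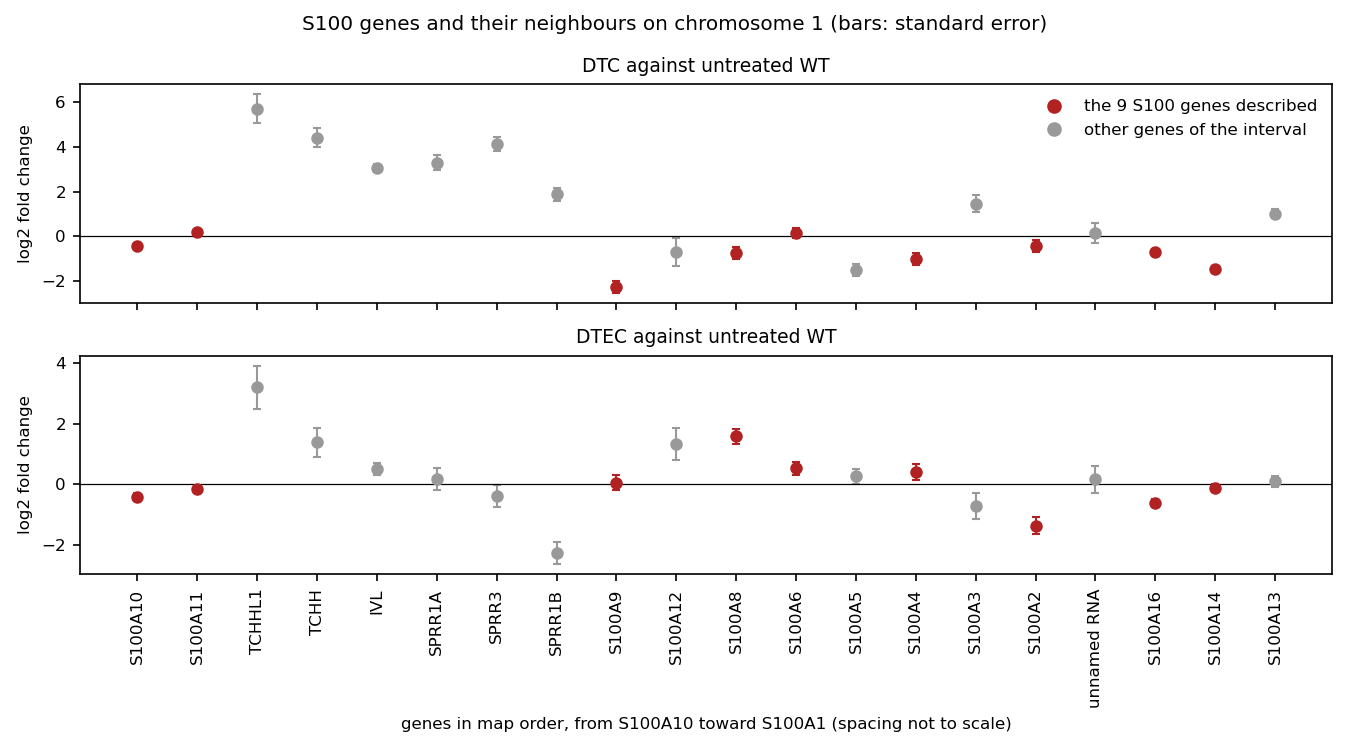
Log2 fold changes with standard errors of the genes of the S100 interval on chromosome 1 that passed the filter on low counts without the DTC libraries, in map order (not to scale), for DTC (top) and DTEC (bottom) against untreated WT. At 7 days 6 of the 9 red points (S100 genes described) were called lower. The grey points (other genes of the interval) run from S100A5 at -1.50 to TCHHL1 at 5.71, with IVL and SPRR3 at 3.06 and 4.13.

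The genes whose profile was most like that of the 3 most variable members were found by the root mean square difference of log2 CPM, centred on untreated WT, over the 12 libraries and 9791 genes of at least 10 CPM. For S100A9 they were SREBF1, a regulator of lipid synthesis (0.26), FOS, an AP-1 subunit (0.29), and KCNK5, a potassium channel (0.35), against a median of 1.14 over all candidates. SREBF1 was at 201, 44.1, 188 and 264 CPM in untreated WT, DTC, DTEC and KO. For S100P the nearest were DDIT4, a stress-induced inhibitor of mTOR signalling (0.22), HBE1 (0.25) and C11orf54 (0.29), against a median of 1.10. DDIT4 was at 44.1, 57.9, 169 and 42.7 CPM in the same order. Most HBE1 and C11orf54 values were not whole, so reads were divided between them and other annotated features. S100A8 had no gene as close: the nearest were RTN4RL1 (0.63), KRT13 (0.66) and GJB2, a gap junction gene (0.68), against a median of 1.43. Its distances use the KO and untreated WT values of S100A8 that chose the set. They also carry the counting error of a gene with 55 to 678 reads per library. The nearest of many candidates lies below their median by construction, so all these distances are given as a description. Among the 10 members the closest pair was S100A10 and S100A16 (0.19).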

How the data were processed

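RNA was sequenced from 12 libraries of PC9 cells (3 in each of 4 groups) with the TruSeq Stranded mRNA kit, per the labels. The authors deposited expected counts, estimated reads per gene without scaling to depth. The submitters' processing notes name RSEM 1.3.1, Bowtie2 2.5.2, DESeq2 1.40.2 and GRCh38, with no role or order, and the annotation release is not given in the sources used here. Gene coordinates are those of the same identifier in GENCODE 29 (58261 of 62754 identifiers), and promoters are RefSeq windows matched by symbol for 10 of 10 genes. All values of the 10 genes were whole numbers.

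Counts were rounded and fitted with edgeR 4.0.16, which runs on limma 3.58.1, in R 4.3.3 (filterByExpr by group, TMM, robust quasi-likelihood, 1 mean per group over all 12 libraries). The 17115 genes kept held at least 99.891% of each library's counts. P-values were adjusted by Benjamini-Hochberg over all tested genes, with calls at 0.05, and the steps were tested on simulated data. KO against untreated WT was not tested for the S100 genes. CPM uses TMM-scaled totals, SE is of the log2 fold change, and ± is the SD of 3 libraries. Log2 CPM for profile likeness used a prior count of 2. Depth sets the precision: 3 counts, the floor for bounds, cover counting error only, and the reads carry no molecular identifiers. Alternatives were other scalings, no filter, DESeq2 1.42.0, fits of the compared libraries alone, a replicate block and leaving out each library.

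The members, gene lists and markers were chosen with earlier results of these data known. All 10 members were named in every comparison. From each list the 2 called genes with the largest change in DTC were named, with binding partners and receptors of the named S100 proteins, and for the 3 members of widest range the 3 nearest profiles.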

Additional observations from a re-analysis of the deposited data

Results flagged for a closer look

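For 7 of the 10 S100 genes the effects of 7 and of 28 days of erlotinib, each taken from untreated WT, differed in the direct test of DTEC against DTC (edgeR quasi-likelihood, Benjamini-Hochberg adjusted p under 0.05), where 55.4% of all tested genes were called. The log2 difference was 2.32 for S100A8 (-0.75 at 7 days and 1.57 at 28 days), 2.30 for S100A9 (-2.26 and 0.05), 1.41 for S100A4 (-1.02 and 0.39), 1.32 for S100A14 (-1.44 and -0.11) and 1.24 for S100P (0.48 and 1.72). It was -0.93 for S100A2 (-0.43 and -1.37) and -0.34 for S100A11 (0.19 and -0.15). S100A8 was the one gene called in opposite directions at the 2 times, and its 7-day call was lost without untreated WT replicate 3, DTC replicate 1 or DTC replicate 3 (adjusted p 0.107, 0.102 and 0.0594). Both of its calls use the untreated WT libraries whose S100A8 level entered the choice of the set. With 3 libraries per group, outlying libraries were not tested for.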

How the results depend on the processing

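Each comparison was refitted under 7 other settings and without each of its 6 libraries. The number of S100 genes called ranged from 5 to 8 in DTC (without a library 5 to 8), 4 to 7 in DTEC (without a library 4 to 5) and 6 to 8 from DTC to DTEC (without a library 6 to 8), and S100A8 in KO was at 1.85 to 2.14 without a library. The replicate block left 6, 5 and 7 genes called and S100A8 in KO at 1.93. Same-numbered libraries deviated together with a median r of 0.0527 (-0.03 to 0.179, 18 pairs) against -0.0319 for differently numbered ones, so the numbers were not taken to pair samples. With library totals alone the median over all genes shifted by 0.355 in DTC, 0.168 in DTEC and -0.187 between them, and upper-quartile scaling by 0.288, 0.115 and -0.175; no filter shifted it by 0.196 in DTC and -0.112 between them. The share of calls that were higher went from 50.5% to 68.4% and 65.0% in DTC, from 49.7% to 63.7% and 59.1% in DTEC and from 51.9% to 37.4% and 38.7% between them. With those scalings 3 genes of the set were called higher and 4 lower, and 2 higher and 4 lower, in DTC. Without the filter, the SE in DTC was 0.135 for S100A6 and 0.135 for S100A11, against 0.212 and 0.0908 in the main fit. A call gained or lost without the filter therefore says little of a gene's own spread between cultures.

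Of 390 values for single S100 genes, 333 kept direction and side of the threshold, 26 gained a call, 17 lost one and 14 changed sign, and the cause was not tested. None of the sign changes was in a called value. In DTC, S100A6 was at -0.0436 without DTC replicate 2 (0.434 without DTC replicate 1). In DTEC, without replicates 3 and 1 of that group, S100A9 was at -0.0927 and 0.223 and S100A13 at -0.0288 and 0.204. S100A11 was at 0.0178 with library totals in DTEC, and S100A14 at 0.0563, at 0.00223 with upper-quartile scaling, at 0.0197 without untreated WT replicate 1 and at -0.211 without DTEC replicate 3. From DTC to DTEC, S100A10 was at -0.163 with library totals, -0.154 with upper-quartile scaling, -0.147 without DTC replicate 1 and -0.0524 without DTEC replicate 3, with a highest value without a library of 0.164. S100A16 was at -0.102, -0.0907, -0.0555 and -0.0539 in the same 4 cases, with a highest value of 0.149. In KO, S100A11 was at 0.0478 with library totals and 0.0375 without untreated WT replicate 1. Lost calls of the 10 genes stand beside their values above. The list counts were also taken over genes that pass the filter without DTC, an alternative chosen after seeing the data. Depth limits S100A2 and S100A8 most, with as few as 40 and 55 reads.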
